A study of Mus musculus with 4 samples.

Results

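Imprinted genes are read mainly from the copy inherited from a single parent. The set described here was 38 mouse genes of 16 imprinted clusters, taken by symbol from a table of 55536 genes, and all 38 had a row. By the allele known to be expressed in mouse, 19 were paternally expressed, 11 maternally expressed and 8 imprinted in some tissues or transcripts only. The rule goes by symbol and uses no measured value, but the list itself was drawn up with earlier results of these data known. A gene was tested if it reached 1 CPM (a read count relative to library size, with the authors' scaling) in at least 2 libraries, which 32 of the 38 and 12838 genes in all did.

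RNA came from the stromal vascular fraction, the cells left when adipocytes are removed from fat, of inguinal white fat of wild-type male mice at postnatal day 21. The offspring groups are labelled LnF1 and ObF1 in a study of parental obesity, and each was labelled water or 1,3BD. The sources used here do not give the route or length of that treatment, the parents' diets or which parent was obese. Each of the 4 combinations was 1 library from a pool of 3 mice, with 24586827 to 26000090 recovered reads, so no group had a replicate. The error of a fitted difference therefore starts from its failure to repeat across the other factor. It is then moderated toward the spread of genes of similar level, so it is partly borrowed from other genes. Values below come in a fixed order, first LnF1 with water and with 1,3BD, then ObF1 with water and with 1,3BD.

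Imprints are set as DNA methylation in the germ line and kept after fertilisation at control regions that act on whole clusters of genes. Many paternally expressed genes promote fetal growth, and many maternally expressed ones restrain it. In mouse a network of these genes, with Plagl1, H19, Igf2, Cdkn1c, Dlk1, Peg3, Mest and Grb10 among its members, is known to be high in growing fetal and newborn tissues and to be turned down together after birth. Dlk1 and Mest are also known for their part in fat: DLK1 holds back the differentiation of preadipocytes, and Mest has been linked to the expansion of fat tissue. The read counts do not separate the parental alleles, so they measure the summed output of both copies and not imprinting itself.

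The RefSeq promoter table (GRCm38.p6) held 47 windows, each 250 bases before to 50 after a start site, for 29 of the 38 genes. For 5 genes picked from the set, 1 window each is printed here, on the strand of its gene. Capitals mark TGCCGC on either strand, the core letters bound by ZFP57, which keeps methylation at mouse imprints, and GGGGCCCC, the letters bound by PLAGL1 itself. Zdbf2 has a window at an upstream start and another at the start of the annotated gene. The upstream window held 3 TGCCGC matches and 15 CpG sites, and is the one shown. The window at the annotated start held 38 CpG sites and 0 TGCCGC matches. Meg3 also has a further window downstream, with 1 CpG site and neither motif, that is not shown.
Plagl1, chr10:13090582-13090881, plus strand: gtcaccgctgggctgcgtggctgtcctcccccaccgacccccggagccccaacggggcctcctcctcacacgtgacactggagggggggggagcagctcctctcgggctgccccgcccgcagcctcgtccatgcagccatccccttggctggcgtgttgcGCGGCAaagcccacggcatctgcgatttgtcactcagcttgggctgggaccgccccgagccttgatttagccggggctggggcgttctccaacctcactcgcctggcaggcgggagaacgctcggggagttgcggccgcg
Zdbf2, chr1:63200108-63200407, plus strand: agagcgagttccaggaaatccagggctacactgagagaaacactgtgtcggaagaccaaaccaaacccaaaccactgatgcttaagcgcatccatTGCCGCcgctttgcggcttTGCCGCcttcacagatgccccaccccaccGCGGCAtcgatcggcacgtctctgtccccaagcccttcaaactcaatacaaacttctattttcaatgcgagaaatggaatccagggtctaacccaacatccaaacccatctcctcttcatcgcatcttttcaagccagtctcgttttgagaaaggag
Meg3, chr12:109540746-109541045, plus strand: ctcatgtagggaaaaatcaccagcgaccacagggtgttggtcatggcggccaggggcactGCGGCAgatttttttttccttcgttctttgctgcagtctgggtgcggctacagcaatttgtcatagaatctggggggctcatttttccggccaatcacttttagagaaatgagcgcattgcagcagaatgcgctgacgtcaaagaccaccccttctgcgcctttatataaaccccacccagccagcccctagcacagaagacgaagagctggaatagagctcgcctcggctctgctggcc
Dlk1, chr12:109452573-109452872, plus strand: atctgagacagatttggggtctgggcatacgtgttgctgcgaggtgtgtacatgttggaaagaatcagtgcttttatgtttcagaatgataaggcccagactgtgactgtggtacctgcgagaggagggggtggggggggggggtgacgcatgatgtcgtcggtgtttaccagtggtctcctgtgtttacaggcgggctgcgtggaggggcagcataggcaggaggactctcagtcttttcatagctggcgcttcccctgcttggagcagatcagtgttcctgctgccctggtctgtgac
Peg3, chr7:6730370-6730669, minus strand: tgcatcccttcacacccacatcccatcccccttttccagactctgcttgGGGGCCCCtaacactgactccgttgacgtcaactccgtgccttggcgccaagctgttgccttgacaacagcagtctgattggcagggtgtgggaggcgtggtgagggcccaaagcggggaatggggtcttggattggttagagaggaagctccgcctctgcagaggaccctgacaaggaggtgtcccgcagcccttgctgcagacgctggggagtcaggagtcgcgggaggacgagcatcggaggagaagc
The Plagl1 window held 26 CpG sites and 1 TGCCGC match, the Meg3 window shown 13 and 1, and the Dlk1 window 9 CpG sites with neither motif. The Peg3 window held 13 CpG sites and the single GGGGCCCC match. TGCCGC was found in 12 of the 47 windows (25.5%), against 11.6% of 32851 windows of all genes. Among the 12 are overlapping windows of Mest, which start at 30737800 and 30737803 on chromosome 6. GGGGCCCC was found in 3 (6.38%), those of Ppp1r9a, Peg3 and Usp29, against 1.08% of all windows. The Peg3 and Usp29 windows overlap, so they share their match. The median window of the set held 13 CpG sites, against 7 over all windows. TGCCGC itself contains a CpG, so its share is not separate from that count. A match of letters is a description of the window and not a site of binding.

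Several of these genes also carry microRNAs, whose mature levels were not analysed here. Shown are some of those of H19, Mest and the strand opposite to Rtl1, with the seed (bases 2 to 8) in capitals. MiR-675 lies in the H19 RNA, miR-335 in Mest, and miR-127 and miR-433 opposite to Rtl1, whose RNA they are known to target in mouse.
miR-675-5p: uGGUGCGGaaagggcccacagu
miR-675-3p: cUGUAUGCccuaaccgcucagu
miR-335-5p: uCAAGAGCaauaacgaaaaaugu
miR-127-3p: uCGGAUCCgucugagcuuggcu
miR-433-3p: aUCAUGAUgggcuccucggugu
Mirg, a host RNA of the Dlk1-Meg3 cluster, spans 14 microRNA genes with 26 mature forms and 25 seeds. The seed GGUUGCC was shared by miR-453 and miR-496a-5p. No other seed was shared among the mature forms of the host genes on chromosomes 6, 7 and 12.

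The 38 genes took 0.327%, 0.299%, 0.220% and 0.237% of the recovered reads. As mean CPM per kilobase of exon, the most abundant were Cd81 at 143, a cell-surface tetraspanin, Grb10 at 50.8, an adaptor that dampens insulin and IGF signalling, and Igf2r at 40.8, the receptor that removes IGF2. Nap1l4, a histone chaperone, stood at 34.0, Impact, a regulator of translation, at 29.3, and H19, a long noncoding RNA, at 28.8. The mean of H19 came mostly from LnF1 water, as its values were 101.8, 5.32, 5.83 and 2.10 CPM per kilobase. Plagl1, a zinc-finger transcription factor, stood at 5.68 and Kcnq1ot1, a very long noncoding RNA, at 0.295. The growth factor gene Igf2 had 7 reads in LnF1 water and 0 in the other 3 libraries, which allows up to 0.108 to 0.130 CPM there. Of its exonic bases 62.8% overlap other genes on the same strand, so its counts are uncertain and this limit may not hold for its RNA. Another 5 had a mean below 1 CPM, namely Phlda2, a brake on placental growth, with 0 to 1 reads, Magel2, a ubiquitin ligase regulator, with 0 to 1, Ddc, a decarboxylase of dopamine synthesis, with 0 to 27, Usp29, a ubiquitin protease, with 2 to 29, and Ppp1r9a, an actin-binding scaffold, with 14 to 30. These 6 genes were not tested.

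**Figure D1:**
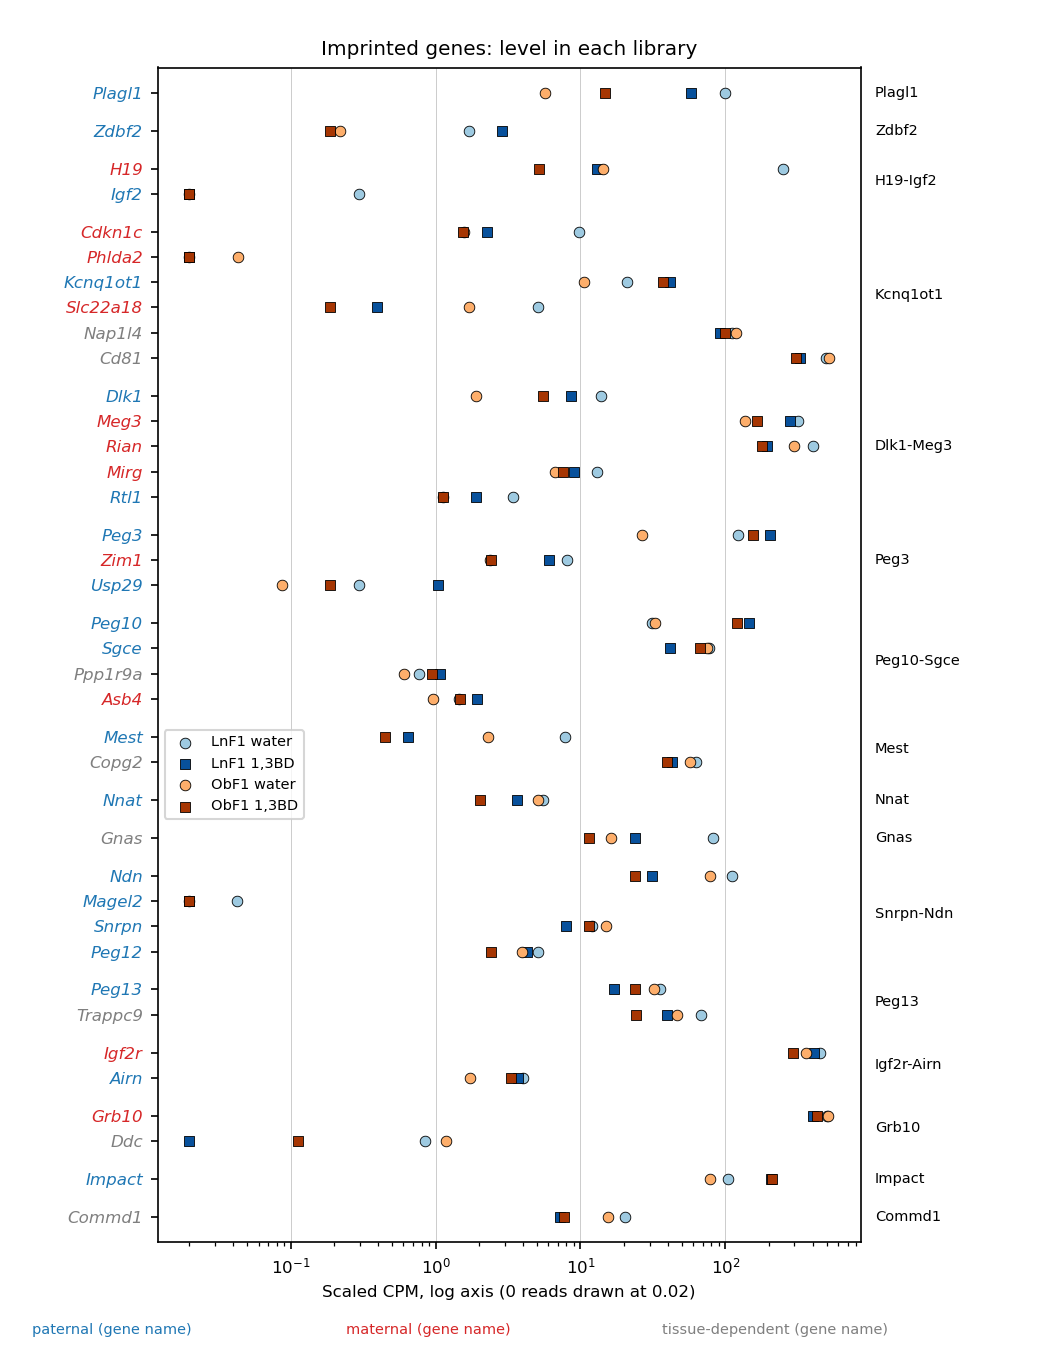
Scaled CPM of each of the 38 genes in the 4 libraries on a log axis, with 0 reads drawn at 0.02, grouped by imprinted cluster named at right. Light points are water and dark points 1,3BD, in blue for LnF1 and orange for ObF1. Plagl1 runs from 5.65 to 99.1 CPM and H19 from 5.17 to 250.3, while Grb10 keeps within 406 to 509.9.

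The comparison of ObF1 with LnF1 asks whether parental obesity moved these genes in the offspring's cells. Most had a lower fitted level in ObF1: 27 of the 32 tested had a fitted difference below 0, against 48.7% of all genes tested, and the median log2 difference was -0.58 against 0.01 over all genes. The widest differences were those of Plagl1, Zdbf2, H19, Dlk1 and Gnas. Only Zdbf2 passed the test (limma, Benjamini-Hochberg adjusted p of at most 0.05), so 1 of 32 was lower, against 0.101% of all genes, and 0 of 32 were higher, against 0.195%. Zdbf2 entered the test through the LnF1 libraries alone, which fixed its direction, so its call is no measure of the set. At an unadjusted p below 0.05, 13 of the 32 passed, Zdbf2 among them, and 0 of the 13 were higher, and 10.8% of all genes passed. The call of Zdbf2 was lost on leaving out any of the 4 libraries in turn. Those fits leave 1 library in a group and called few parental differences over all genes, so the loss is not particular to Zdbf2. Its fitted difference ran from -3.39 to -2.66 in them. DESeq2 on the recovered reads called 5 lower (Plagl1, Zdbf2, Meg3, Peg3 and Gnas), among 49 lower and 70 higher of all genes. By edgeR, Zdbf2 was the single gene of the set called, among 14 lower and 24 higher. Library totals in place of the deposited scaling lower the median of all genes from 0.01 to -0.10 and turn the split of all parental calls from 25 higher and 13 lower to 16 and 13, and Zdbf2 is then still the gene called. In bulk RNA, fewer cells of a type and less RNA per cell cannot be told apart.

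The same direction appeared under each treatment, more widely in water. Between the water libraries 13 of the 32 were at least 2-fold lower in ObF1, against 2.8% of all genes, and 0 were at least 2-fold higher, against 3.04%. Between the 1,3BD libraries 5 were at least 2-fold lower (Plagl1, Zdbf2, H19, Zim1 and Gnas), against 4.27%, and 0 higher, against 3.07%. Of the 23 genes below 0 in both differences, 18 had the larger one in water. Both ObF1 libraries lay below both LnF1 libraries for 12 of the 32, against 8.02% of all genes. They lay above for 0, against 8.44%. LnF1 water held the highest value of 22 of the 32, against 28.4% of all genes. These counts rest on 1 library each side and carry no test. Zdbf2, whose direction the filter fixed, is counted in the 13, the 5 and the 12.

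**Figure D2:**
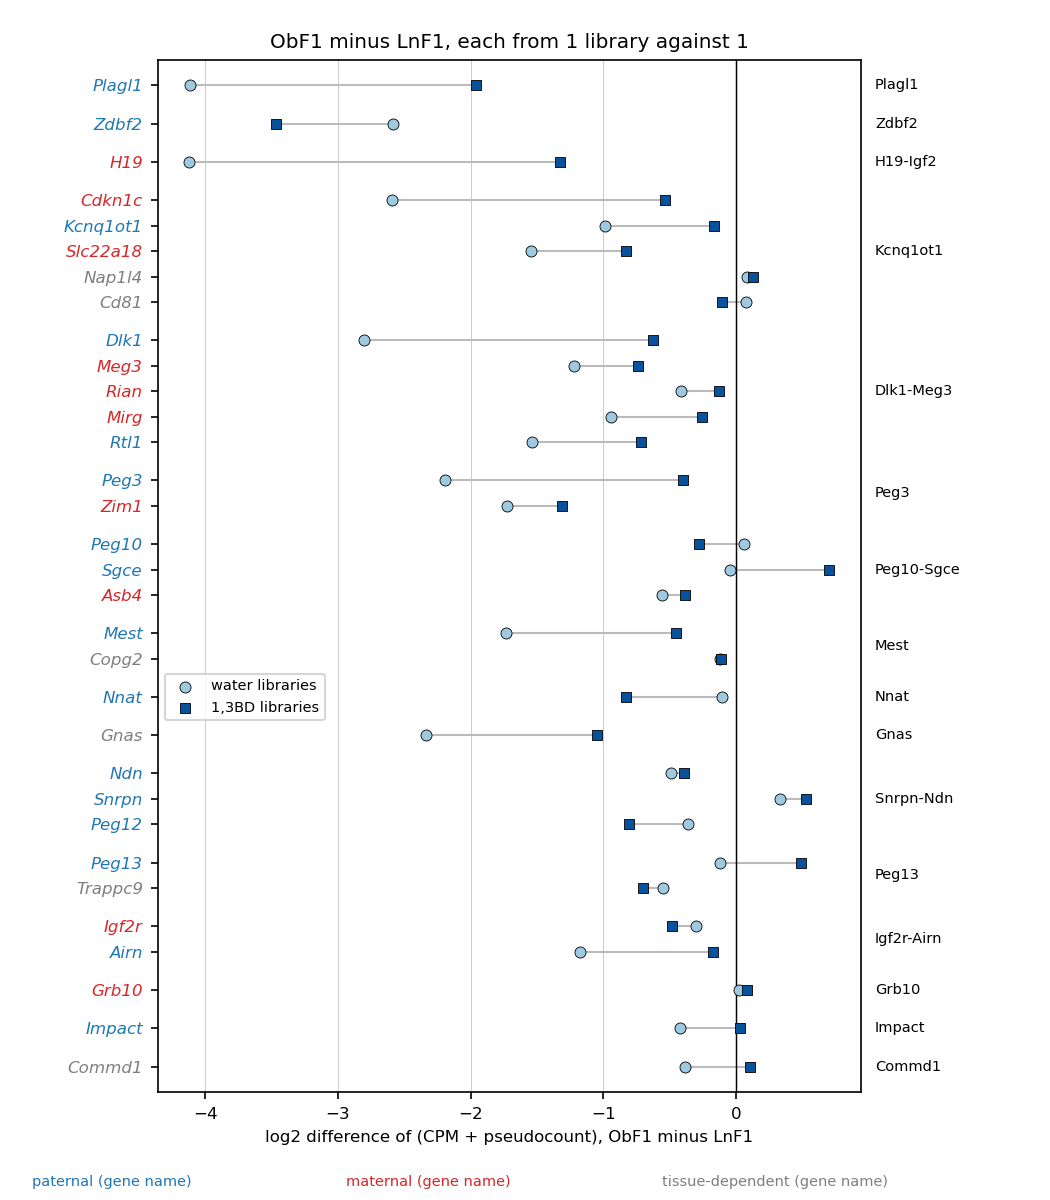
Log2 difference of CPM plus pseudocount, ObF1 minus LnF1, for the 32 tested genes, from the water libraries and from the 1,3BD libraries, with a line joining them. Plagl1 runs from -4.11 in water to -1.96 in 1,3BD, and 23 genes lie left of 0 in both.

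Plagl1 (chromosome 10, 13060504 to 13131694, plus strand, in the GENCODE annotation of GRCm38, as are the other gene positions) is known in mouse to raise the transcription of other imprinted genes. Its values were 99.1, 58.1, 5.65 and 14.8 CPM. Both ObF1 libraries lay far below both LnF1 libraries. The ObF1 to LnF1 ratio was 0.0570 (95% interval 0.0474 to 0.0680) in water and 0.256 (95% interval 0.229 to 0.286) in 1,3BD, in exact binomial intervals that cover counting error only. The fitted difference did not pass (log2 difference -3.04, SE 0.56, limma adjusted p = 0.212), and it ran from -3.73 to -2.35 on leaving out each library.

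Zdbf2 (chromosome 1, 63273265 to 63314576, plus strand) is paternally expressed and has been linked in mouse to feeding and growth after birth. Its values were 1.70, 2.87, 0.217 and 0.187 CPM, from 40, 80, 5 and 5 reads. The groups did not overlap, and the fit put it lower in ObF1 (log2 difference -3.02, SE 0.52, limma adjusted p = 0.0418). It reached 1 CPM in the LnF1 libraries only.

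H19 (chromosome 7, 142575529 to 142578143, minus strand), the maternally expressed RNA that shares its control region with Igf2 and gives rise to miR-675, had values of 250.3, 13.1, 14.3 and 5.17 CPM. LnF1 water stood alone at the top, and the other 3 libraries lay within 5.17 to 14.3 CPM. LnF1 1,3BD lay just below ObF1 water, so the groups overlapped (log2 difference -2.72, SE 0.89, limma adjusted p = 0.480). Without LnF1 water the fitted parental difference was -0.60, and without LnF1 1,3BD it was -4.85. Igf2, its partner, had reads in LnF1 water only, and its counts are uncertain because of its overlap with other genes.

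In the Kcnq1ot1 cluster the growth brake Cdkn1c, a cyclin-dependent kinase inhibitor, had values of 9.85, 2.26, 1.56 and 1.54 CPM (log2 difference -1.56, SE 0.49, limma adjusted p = 0.273), and its difference ran from -2.61 to -0.52 on leaving out each library. LnF1 water was again high, and 30.7% of its exonic bases overlap a gene on the other strand. The sources used here do not say whether counting used strand, so reads of such pairs cannot be told apart. Kcnq1ot1, the RNA that silences the cluster on the paternal copy, stood at 20.9, 41.5, 10.5 and 36.9 CPM, and Slc22a18, an organic cation transporter, at 5.09, 0.394, 1.69 and 0.187 CPM. Neither differed between parents past the test (log2 difference -0.58, SE 0.26, limma adjusted p = 0.446 and log2 difference -1.19, SE 0.48, limma adjusted p = 0.399). Nap1l4 stood at 111, 91.8, 118 and 100.2 CPM and Cd81 at 492, 328, 519.9 and 305 CPM, with parental log2 differences of 0.10 and -0.01 that change sign under library totals and under RLE scaling, respectively.

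In the Dlk1-Meg3 cluster all 5 genes had parental differences below 0, and 4 of them had both ObF1 libraries below both LnF1 libraries, against 8.02% of all genes. Dio3, the deiodinase gene at the far end of this cluster and no member of the set, had 1.78, 0.0717, 12.9 and 0.0750 CPM (log2 difference 1.42, SE 0.66, limma adjusted p = 0.470). Dlk1 (chromosome 12, 109452823 to 109463336, plus strand), the paternally expressed membrane protein of preadipocytes, had values of 13.8, 8.61, 1.91 and 5.55 CPM (log2 difference -1.72, SE 0.48, limma adjusted p = 0.256), and -2.47 to -0.97 was the range of its difference without each library. Meg3, the maternally expressed RNA that opposes it, had values of 318, 278, 137 and 167 CPM (log2 difference -0.98, SE 0.21, limma adjusted p = 0.0893). This pair, read from opposite parental alleles, thus stood lower in the same libraries. Mirg had 12.9, 9.04, 6.69 and 7.54 CPM and Rtl1, a retrotransposon-derived protein of placenta and muscle, 3.44, 1.90, 1.13 and 1.12 CPM. Rian, the snoRNA host, was the member whose groups overlapped, at 400.5, 195, 300.0 and 178 CPM (log2 difference -0.27, SE 0.20, limma adjusted p = 0.644).

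In the Peg3 cluster, Peg3, a zinc-finger protein, had values of 122, 205, 26.5 and 155 CPM. ObF1 water was low, and ObF1 1,3BD lay above LnF1 water (log2 difference -1.30, SE 0.46, limma adjusted p = 0.427). On leaving out each library in turn this difference ran from -2.57 to -0.0250. Its maternally expressed neighbour Zim1, a zinc-finger gene, had values of 8.11, 6.06, 2.39 and 2.40 CPM, with both ObF1 libraries well below both LnF1 libraries (log2 difference -1.52, SE 0.34, limma adjusted p = 0.115). Gnas, the stimulatory G protein alpha subunit, had values of 82.2, 23.8, 16.2 and 11.5 CPM and did not overlap between parents (log2 difference -1.69, SE 0.30, limma adjusted p = 0.0686). Without each library in turn its difference ran from -2.58 to -0.80. Of its exonic bases 22.0% overlap genes on the other strand, among them its imprinted antisense RNA Nespas.

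Mest, a hydrolase-family protein, had 7.85, 0.645, 2.30 and 0.450 CPM, low in both 1,3BD libraries, so that the parental difference lay in water (log2 difference -1.09, SE 0.46, limma adjusted p = 0.415). Copg2, a coat protein subunit whose gene overlaps 23.1% of the exonic bases of Mest on the other strand, had 62.4, 42.9, 57.4 and 39.7 CPM. Nnat, a small membrane proteolipid, had 5.52, 3.66, 5.13 and 2.02 CPM, and Ndn, a MAGE-family growth suppressor, 110.4, 31.1, 78.7 and 23.7 CPM. Snrpn, a splicing protein, had 12.0, 7.89, 15.1 and 11.4 CPM, and its parental difference of 0.43 was the highest of the 32 (log2 difference 0.43, SE 0.26, limma adjusted p = 0.555). Of its exonic bases 27.3% overlap other genes on the same strand, so its counts are uncertain. Peg12, a FRAT-family regulator of WNT signalling, had 5.09, 4.27, 3.95 and 2.40 CPM with no overlap between parents.

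Igf2r had 447, 413, 363 and 295 CPM and Airn, the antisense RNA that silences it on the paternal copy, 4.03, 3.73, 1.74 and 3.30 CPM. For both, each ObF1 library lay below each LnF1 library, with a small gap between the nearest libraries. Neither passed, Igf2r (log2 difference -0.39, SE 0.20, limma adjusted p = 0.496) or Airn (log2 difference -0.68, SE 0.39, limma adjusted p = 0.544). Between the 1,3BD libraries the ObF1 to LnF1 ratio of Airn was 0.885 (95% interval 0.658 to 1.19), within counting error. Peg10, a retrotransposon-derived gene of placenta, had 31.2, 146, 32.5 and 120.3 CPM, its neighbour Sgce, a sarcoglycan, 77.3, 41.4, 75.0 and 67.4 CPM, and Asb4, a ubiquitin ligase adaptor, 1.44, 1.94, 0.956 and 1.46 CPM. Peg13, a noncoding RNA inside Trappc9, had 35.1, 17.0, 32.3 and 24.0 CPM, and Trappc9, a vesicle-tethering subunit, 67.6, 39.6, 46.1 and 24.3 CPM. Grb10 had 501, 406, 509.9 and 429.9 CPM, Impact 104, 207, 77.9 and 212 CPM and Commd1, a copper and NF-kappa-B regulator, 20.4, 7.17, 15.6 and 7.72 CPM. The parental differences of these last 8 from Peg10 on ran from -0.62 to 0.33, and that of Grb10, 0.05, turns to -0.05 under library totals.

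Genes read from either parent's allele lay mostly below 0. The 16 tested paternally expressed genes had a median parental log2 difference of -0.58, with 13 below 0 and 1 lower past the test. The 10 maternally expressed ones had -0.79, with 9 below 0 and 0 past the test, and the 6 of tissue-dependent imprinting -0.13, with 5 below 0 and 0 past it. Genes within 500 kb of a member that are in no list of imprinted genes were taken as neighbours: of 90 tested, 38 (42.2%) lay below 0, the median was 0.08, and 0 passed the test. Both ObF1 libraries lay below both LnF1 libraries for 7.78% of these neighbours. The difference between the imprinted genes and their neighbours was not tested.

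**Figure D3:**
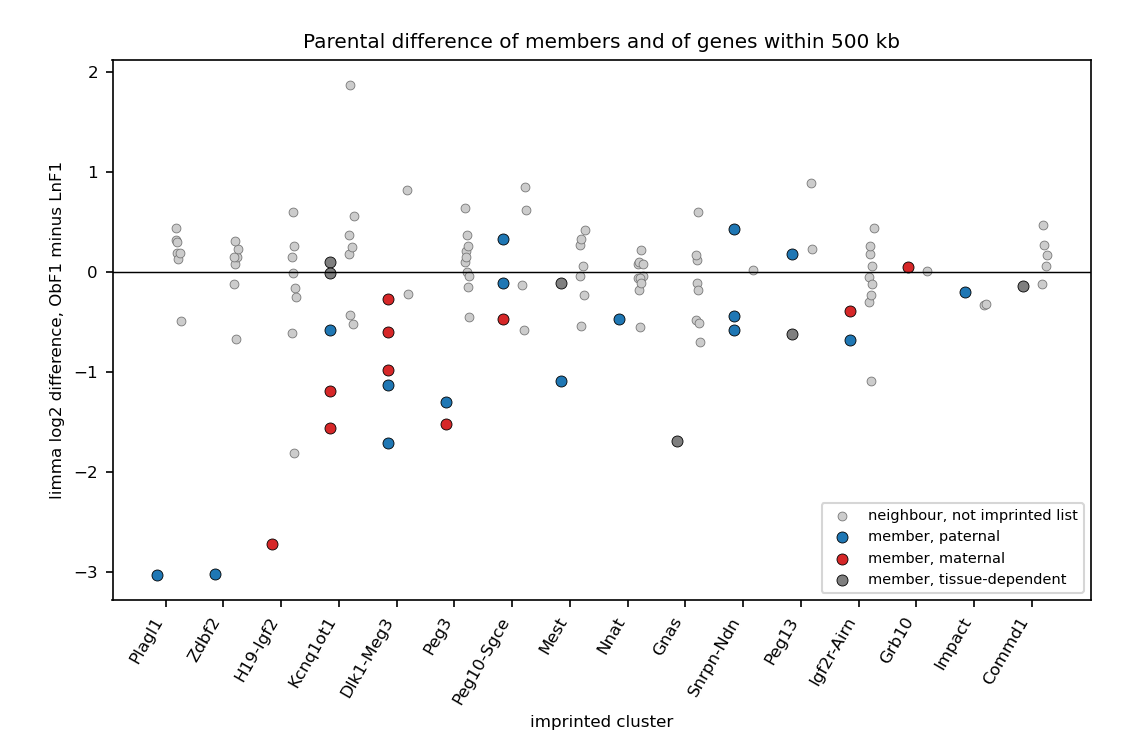
Fitted log2 difference, ObF1 minus LnF1, of the tested imprinted genes and of their tested neighbours within 500 kb, by cluster. The 90 neighbours spread around a median of 0.08, from -1.81 to 1.88, while the 32 imprinted genes have a median of -0.58.

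Other imprinted genes, a list of 50 with 31 tested, had 14 below 0 and a median parental difference of 0.02. By limma 0 were lower and 1 was higher. That gene was Ampd3, an AMP deaminase known to be imprinted in mouse placenta, at 12.4, 25.8, 59.5 and 104 CPM (log2 difference 2.13, SE 0.22, limma adjusted p = 0.00141). Of 22 regulators of imprints 20 were tested, and 0 passed for parents, with a median of -0.05. Of 10 proliferation genes 0 passed for parents, with a median of -0.08.

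The comparison of 1,3BD with water asks how the treatment moved the same genes. It moved much of the transcriptome, and these genes about as often as others. With 1,3BD, 4 of the 32 were higher (Kcnq1ot1, Peg3, Peg10 and Impact), against 19.2% of all genes. With 1,3BD, 10 were lower (Slc22a18, Cd81, Rian, Mest, Nnat, Gnas, Ndn, Peg13, Trappc9 and Commd1), against 24.8%. Of these, Slc22a18 and Mest entered the test through the water libraries alone, which fixed their direction. Below 0 lay 22 of the 32, against 52.6%, with a median of -0.45 against -0.06 over all genes. All 4 that rose are paternally expressed, and of the 10 that fell 4 are paternally expressed, 2 maternally expressed and 4 tissue-dependent. Library totals in place of the deposited scaling raise the median of all genes from -0.06 to 0.19 and turn the split of all calls from 2466 higher and 3189 lower to 3663 and 2283. Under them 4 of the set were higher and 7 lower.

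Leaving out a library changed many of these calls. Without LnF1 water 5 were higher and 1 lower (Ndn), among 668 and 1232 of all genes. Without LnF1 1,3BD there were 2 and 7, among 1926 and 2731. Without ObF1 water there were 1 (Peg10) and 8, among 817 and 1326. Without ObF1 1,3BD there were 2 and 5, among 1004 and 1739, so calls were fewer across the whole table in each case. Within LnF1, 9 of the 32 were at least 2-fold lower with 1,3BD, against 16.4% of all genes, and 1 at least 2-fold higher, against 10.7%. Within ObF1, 6 were at least 2-fold lower, against 19.7%, and 6 at least 2-fold higher, against 13.1%. Both 1,3BD libraries lay below both water libraries for 15 of the 32, against 38.2% of all genes. They lay above for 5 (Kcnq1ot1, Peg3, Peg10, Asb4 and Impact), against 33.8%. Slc22a18 and Mest, whose direction the filter fixed, are counted in the 9 and the 6 that were lower and in the 15.

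**Figure D4:**
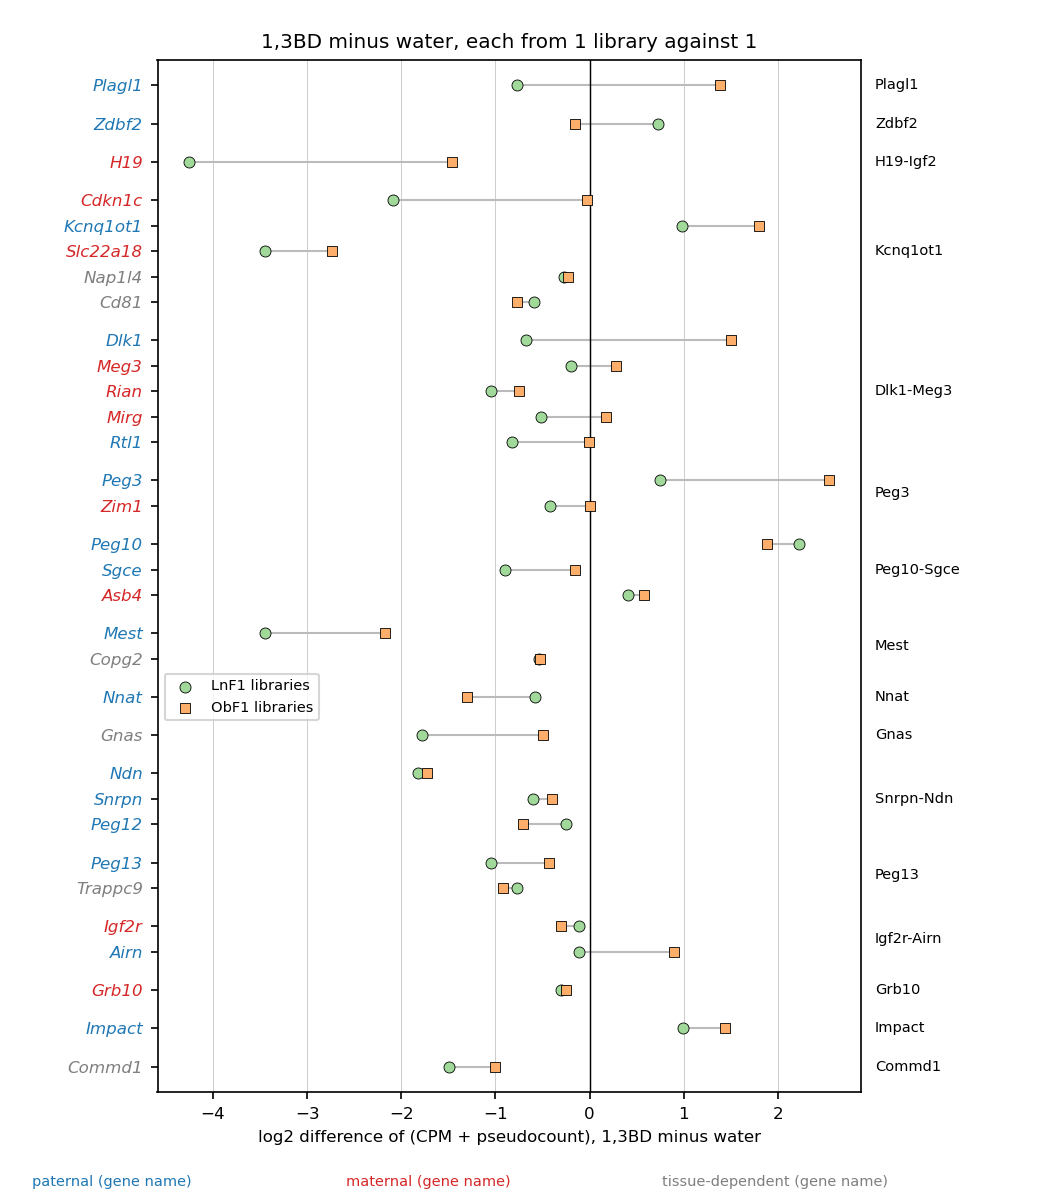
Log2 difference of CPM plus pseudocount, 1,3BD minus water, for the 32 tested genes, within LnF1 and within ObF1, with a line joining them. Peg10, Peg3, Kcnq1ot1, Impact and Asb4 lie right of 0 in both, and Plagl1 and Dlk1 lie on opposite sides of 0.

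Peg10 rose most among them, from 31.2 and 32.5 CPM in water to 146 and 120.3 with 1,3BD, a fitted 4.16-fold rise (log2 difference 2.06, SE 0.21, limma adjusted p = 2.53e-05). Peg3 rose 3.13-fold (log2 difference 1.65, SE 0.46, limma adjusted p = 0.0430), from a low level in ObF1 water, and its call is lost without parents in the fit. Kcnq1ot1 rose 2.63-fold (log2 difference 1.39, SE 0.26, limma adjusted p = 0.00141) and Impact 2.33-fold (log2 difference 1.22, SE 0.20, limma adjusted p = 7.54e-04), each in both offspring groups. The close neighbour of Peg10, Sgce, which starts from the same control region, did not rise with it (log2 difference -0.53, SE 0.23, limma adjusted p = 0.0823).

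Among the 10 genes that fell, Slc22a18 and Mest had the largest differences. Slc22a18 was 8.51-fold lower (log2 difference -3.09, SE 0.48, limma adjusted p = 5.18e-04) and Mest 7.01-fold lower (log2 difference -2.81, SE 0.46, limma adjusted p = 7.12e-04), and both passed the filter on low values through the water libraries alone. Ndn fell in each offspring group to about the same degree (log2 difference -1.78, SE 0.21, limma adjusted p = 6.86e-05), and of the 10 it alone was lower on leaving out each library in turn. Commd1 (log2 difference -1.25, SE 0.26, limma adjusted p = 0.00311), Gnas (log2 difference -1.14, SE 0.30, limma adjusted p = 0.0137), Rian (log2 difference -0.90, SE 0.20, limma adjusted p = 0.00418), Trappc9 (log2 difference -0.85, SE 0.21, limma adjusted p = 0.00773), Peg13 (log2 difference -0.74, SE 0.24, limma adjusted p = 0.0278), Nnat (log2 difference -0.94, SE 0.35, limma adjusted p = 0.0492) and Cd81 (log2 difference -0.68, SE 0.20, limma adjusted p = 0.0185) fell less. Without LnF1 water the log2 difference of Gnas was 0.0250. H19 had its lower value with 1,3BD in each offspring group and did not pass (log2 difference -2.85, SE 0.89, limma adjusted p = 0.110), and neither did Cdkn1c (log2 difference -1.05, SE 0.49, limma adjusted p = 0.106).

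Within the Kcnq1ot1 cluster Kcnq1ot1 rose, Slc22a18 and Cd81 fell, and Nap1l4 did not pass (log2 difference -0.25, SE 0.19, limma adjusted p = 0.301). Whether these changes are linked was not tested. In the Dlk1-Meg3 cluster Rian fell and Meg3 did not pass (log2 difference 0.04, SE 0.21, limma adjusted p = 0.875). Plagl1 and Dlk1 took opposite directions by offspring group. Plagl1 was lower with 1,3BD in LnF1, at a ratio of 0.586 (95% interval 0.550 to 0.625), and higher in ObF1, at 2.63 (95% interval 2.15 to 3.23). Dlk1 stood at ratios of 0.622 (95% interval 0.524 to 0.737) and 2.90 (95% interval 2.06 to 4.16). Neither passed for treatment (log2 difference 0.31, SE 0.56, limma adjusted p = 0.692 and log2 difference 0.41, SE 0.48, limma adjusted p = 0.523).

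Of the 31 other imprinted genes tested, 9 rose and 10 fell with 1,3BD, against 19.2% higher and 24.8% lower of all genes, shares that also stand beside the counts of the next lists. The largest rises were those of Snhg14 (2.25 on the log2 scale), the RNA that spans the Snrpn to Ube3a region, Nap1l5 (1.76) and Adam23 (1.42). The largest falls were those of Dio3 (-5.01), which passed the filter on low values through the water libraries alone, Cobl (-2.94), Slc38a4 (-2.54) and Tfpi2 (-2.46). Of the 20 regulators of imprints tested, 4 rose, among them Tet2 (2.11), which oxidises methylated cytosine, and Zfp445 (1.20), which guards imprints. Another 4 fell, among them Uhrf1 (-1.47), which brings DNMT1 to replicated DNA, and Zfp57 (-1.03). Of the 10 proliferation genes 1 rose, Rrm2, and 5 fell. Of 90 neighbours 18 rose and 17 fell.

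Markers set the cells beside these values. The 10 fibroblast and progenitor genes summed to 27999, 13145, 28977 and 9756 CPM, with Dpp4, a marker of early progenitors, at no more than 0.869 CPM. Collagen transcripts, led by Col1a1, make up most of this sum, so it does not speak for each gene. Of the 9 tested, 3 fell with 1,3BD and 0 rose, against 24.8% and 19.2% of all genes, and 7 lay below 0. The 6 mural genes, led by Acta2, summed to 8336 and 8962 CPM in water and to 133 and 202 CPM with 1,3BD, and all 6 fell. The 7 white blood cell genes summed to 2.76 to 7.26 CPM, with Cd3e and Cd79b at 0, and the 5 endothelial ones to 3.12 to 24.5 CPM. Epcam, Adipoq, Lep, Ucp1, Hbb-bs and Rbfox3 were at 0 in all 4 libraries, and Plin1, an adipocyte gene, was at 0.0434 to 0.0849 CPM in water and at 1.84 to 5.09 CPM with 1,3BD. Of the 4 skeletal muscle genes Acta1 stood at 86.5, 1.83, 61.8 and 1.87 CPM and Tnnt3 within 0.717 to 1.54 CPM in the 4 libraries, with Ckm and Myh1 at 0 to 0.304 CPM. Sox10, a gene of glial cells, stood at 1.23, 0.574, 8.52 and 0 CPM. Of the 10 fibroblast and progenitor genes 6 were higher in LnF1 water than in ObF1 water and 4 were lower. For parents the 9 tested had a median log2 difference of -0.39, with 6 below 0 and 0 past the test. Both ObF1 libraries lay below both LnF1 libraries for 2 of the 9, against 8.02% of all genes, and above for 0, against 8.44%. The 6 mural genes had a parental median of 0.27, with 1 below 0. Dcn, a matrix gene that is also on the list of other imprinted genes, stood at 328, 68.7, 63.9 and 81.1 CPM, and Col1a1, a collagen, at 16522, 4307, 18761 and 3371 CPM. Mitochondrial reads were 1.13% and 1.30% in water and 2.78% and 5.80% with 1,3BD. The part of any of these in the values of the imprinted genes was not tested.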

How the data were processed

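RNA of 4 pooled libraries was sequenced after TRIzol extraction and a KAPA mRNA kit, per the labels' protocols. The submitters' processing notes name mm10, edgeR and DESeq2, with no role or version, and the sources used here do not give the aligner, counter, annotation or use of strand. The deposited table holds a scaled signal per gene, CPM divided by a library factor of 0.885 to 1.13. Its steps gave whole reads for 100% of values within a relative tolerance of 1e-06, and 1 read was worth 0.0359 to 0.0434 CPM. The columns that name no treatment were matched to water, since the other columns name 1,3BD. All 38 genes were matched by symbol.

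Because the values are scaled, limma 3.58.1 was fitted to log2(CPM + 0.0796), the added value being that of 2 reads. The model was additive in parents and treatment, and its variances were moderated robustly along their trend with expression. It left 1 residual degree of freedom. P-values were adjusted by Benjamini-Hochberg over all 12838 genes tested, with a threshold of 0.05. Fold changes on this scale understate those of low genes. P-values rest on the failure of a difference to repeat across the other factor, moderated toward genes of similar level. They measure no spread between like libraries or between animals. Differences between 2 libraries carry exact binomial intervals at 95% for counting error only, without molecular identifiers. Alternatives were other pseudocounts, filters, scalings and models, edgeR 4.0.16 and DESeq2 1.42.0 on the recovered reads, and leaving out each library. The fit was tested on simulated data. Promoters and microRNAs come from RefSeq tables of GRCm38.p6.

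Every one of the 38 genes with a mean of at least 1 CPM is given with its values, and of each other list at most 4 genes a direction past the threshold. The 38 genes, their grouping and the other lists were chosen with earlier results of these data known, so no list was tested. A marker gene of the lists is not reported here.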

Additional observations from a re-analysis of the deposited data

Results flagged for a closer look

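Plagl1 and Dlk1 moved in opposite directions with 1,3BD in the 2 offspring groups, by more than 1.5-fold each way. For Plagl1 the log2 difference, 1,3BD minus water, was -0.77 in LnF1 and 1.38 in ObF1. For Dlk1 it was -0.68 in LnF1 and 1.499 in ObF1. Each value compares 1 library with 1, and the difference between the offspring groups was not tested.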

How the results depend on the processing

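The number of genes of the set lower in ObF1, 1 as reported, was 0 with a pseudocount of 0.5 CPM, at a mean CPM of 5 or more, with TMM factors and without treatment in the fit. In these settings 5, 5, 9 and 0 of all genes were lower, against 13 as reported. Zdbf2, with a mean of 1.24 CPM, was not tested at a mean CPM of 5 or more. The number in the set was 8 with no filter, 5 by DESeq2, 2 by limma voom and 4 with robust moderation off. There 156 of 26964, 49, 21 and 18 of all genes were lower. Fits that leave out a library called few parental differences over the whole table, and the call of Zdbf2 was lost in each. The number lower with 1,3BD, 10 as reported, was 6 without parents in the fit and 1 to 8 on leaving out each library, and the number higher, 4 as reported, was 1 to 5. The median parental difference of -0.58 was -0.33 at a mean CPM of 5 or more and -0.83 to -0.40 on leaving out each library. The median treatment difference of -0.45 was -0.73 to -0.17. Fits without a library held 1 factor alone, so they lose the other factor as well as a sample, and a lone library was assumed to vary like the rest. No gene of the set was called higher in ObF1 under any of these settings.

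With all libraries kept, 704 of 748 fitted differences of the single genes kept their direction and side of the threshold, 16 lost and 21 gained a call, and 7 changed sign. Library totals turned the parental differences of Nap1l4 (-0.00313) and Grb10 (-0.0540) and the treatment differences of Mirg (0.0752), Zim1 (0.0400) and Igf2r (0.0410). RLE scaling turned the parental difference of Cd81 (0.00273) and limma voom the treatment difference of Plagl1 (-0.0294). The cause of these changes was not tested.

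On leaving out each library, 26 of 64 differences changed sign at least once. For parents the ranges were -1.48 to 0.33 for Kcnq1ot1, -2.91 to 0.54 for Slc22a18, -0.0338 to 0.24 for Nap1l4, -0.40 to 0.37 for Cd81, -0.79 to 0.25 for Rian, -1.22 to 1.00 for Peg10, -0.12 to 0.78 for Sgce, -2.82 to 0.63 for Mest, -0.38 to 0.16 for Copg2, -1.12 to 0.19 for Nnat, -1.35 to 0.47 for Ndn, -0.34 to 0.70 for Peg13, -0.10 to 0.21 for Grb10, -0.92 to 0.53 for Impact and -0.89 to 0.61 for Commd1. For treatment they were -1.75 to 2.36 for Plagl1, -1.44 to 2.02 for Zdbf2, -2.35 to 0.24 for Cdkn1c, -0.99 to 1.81 for Dlk1, -0.56 to 0.65 for Meg3, -0.64 to 0.30 for Mirg, -1.19 to 0.35 for Rtl1, -1.07 to 0.66 for Zim1, -2.31 to 0.0250 for Gnas, -0.45 to 0.0334 for Igf2r and -0.20 to 0.98 for Airn.

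No paired analysis was possible because each group is 1 library and the labels carry no replicate numbers. At this depth 3 reads, or 0.108 to 0.130 CPM, are the limit that a count of 0 allows, which bears on Igf2, Phlda2, Magel2 and Ddc. For Igf2 the overlap with other genes on the same strand makes this limit uncertain.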
